A study of Mus musculus with 6 samples.

Results

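The genes described here are the ubiquitin-specific proteases other than Usp18, chosen as every protein-coding mouse gene whose GENCODE M21 symbol is Usp followed by a digit. The rule found 55 members among the 54232 genes of the files, and 43 of them had enough counts to be tested. All 6 libraries came from sorted CNS monocytes (GFP- CD45+ CD11b+ Ly6Chi Ly6G-) of mixed BM chimera mice at the peak of experimental autoimmune encephalomyelitis (EAE), a mouse model of multiple sclerosis. The GFP+ recipients had been lethally irradiated and given WT (CD45.1) and *Ifnar1*-/- (CD45.2) BM cells in equal parts, and all were treated daily with 30000 IU of rIFN-β. The 3 WT and 3 *Ifnar1*-/- libraries therefore compare monocytes with and without the type I IFN receptor chain IFNAR1 in treated mice, and no library came from untreated mice. The donor strains also differ in the CD45 allele, so that the effect of the genotype and that of the strain cannot be told apart. The labels do not say which libraries came from the same recipient, and p-values measure the spread between these libraries.

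Ubiquitin is a small protein that cells attach to other proteins, singly or as chains, to send them to the proteasome or to change their activity and location. Ubiquitin-specific proteases are cysteine proteases that remove it, and they are the most numerous class of deubiquitinases. Several act on signalling after pathogen sensing, where chains on adaptors such as TRAF3 and TRAF6 are trimmed. Usp18, which the rule leaves out, removes the ubiquitin-like protein ISG15, restrains IFNAR signalling and is a well-known IFN-stimulated gene.

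The proteases share a short stretch around the catalytic cysteine, called the cysteine box. A search of the coding sequences of GENCODE M21 (GRCm38) transcripts found it in 53 of the 55 members and not in Usp39 or Usp6nl. Usp39 is a splicing factor with a degenerate protease domain, and Usp6nl is a GTPase-activating protein that carries the name without the fold. The codons are shown for Usp25, the member called in the comparison, for its closest paralogue Usp28, for the abundant Usp9x, and for the aligned place of Usp39. Capitals mark the codon of the catalytic cysteine and, in Usp39, the aspartate codon that stands there.
Usp25: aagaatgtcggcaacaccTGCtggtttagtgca
Usp28: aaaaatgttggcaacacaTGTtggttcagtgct
Usp9x: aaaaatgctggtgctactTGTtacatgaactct
Usp39: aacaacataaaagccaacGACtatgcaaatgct
The cysteine is residue 178 of 1055 in Usp25, residue 171 of 1051 in Usp28 and residue 1566 of 2554 in Usp9x, each in the transcript used.

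Promoter windows of 300 bases around the starts of RefSeq transcripts (GRCm38.p6) were found for 43 of the 55 genes, in 44 windows. RefSeq and GENCODE starts can differ, and 11 of the 44 windows, those of Usp7 and Usp25 among them, lay wholly inside the GENCODE gene. They were searched on both strands for the IFN-stimulated response element (GAAA, any 2 bases and GAAA), the gamma-activated site TTCNNNGAA, the CCAAT box and the SP1 motif GGGCGG. The IFN-stimulated response element was in 3 of the 44 member windows (Usp17lc, Usp17ld and Usp49) and in 3.44% of all 32851 windows. The gamma-activated site was in 6 of the 44 member windows (Usp17la, Usp17lc, Usp17ld, Usp26, Usp27x and Usp50) and in 8.3% of all windows. Usp17la, Usp17lc and Usp17ld are near-identical copies without a count in any library, so their matches are not independent of each other. SP1 letters were in 28 member windows and in 35.7% of all, and CCAAT was in 14 member windows and in 37.4% of all. The median GC content was 64.0% in member windows and 52.7% over all windows, and the median number of CG steps was 25 against 7. The window of Usp25 began 113 bases after the GENCODE start of the gene. Usp49 is shown as the tested member whose window holds the IFN-stimulated response element letters (1 match in the printed part, in capitals, of 2 in the window), with the part before the start printed, on the plus strand at chr17:47630440-47630689.
Usp49: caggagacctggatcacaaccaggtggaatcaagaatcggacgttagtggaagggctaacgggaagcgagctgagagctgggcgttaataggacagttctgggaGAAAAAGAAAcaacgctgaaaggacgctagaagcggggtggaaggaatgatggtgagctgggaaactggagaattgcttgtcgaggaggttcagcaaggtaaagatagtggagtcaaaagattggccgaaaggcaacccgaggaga
Usp49 was not called, it overlaps Tomm6 on the other strand and Gm20517 on the same strand (mean count 12.8), and its values were low and scattered. Normalized CPM (counts scaled to a common library size by edgeR) of Usp49 were 5.55, 1.28 and 3.36 in WT and 3.21, 5.42 and 2.39 in *Ifnar1*-/- monocytes (log2 fold change -0.07, SE 0.49, adjusted p 0.965). A match is only a match of letters, and binding was not measured.

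Libraries held 4531782 to 7321380 expected counts, of which the members took 9922 to 15775. Mitochondrial ribosomal RNA took 12.3 to 17.6% of counts in WT and 15.1 to 22.7% in *Ifnar1*-/- libraries, and its part in the results was not tested. *Ifnar1* itself gave 153, 126 and 111 normalized CPM in WT and 110, 102 and 109 in *Ifnar1*-/- libraries (adjusted p 0.36), and a count over the whole gene does not show whether an exon is interrupted. Usp18 separated the groups, at 109, 69.9 and 70.3 normalized CPM in WT and 3.82, 4.91 and 6.07 in *Ifnar1*-/- monocytes (log2 fold change 4.09, SE 0.25, adjusted p 1.26e-05). Across all 11254 tested genes, edgeR's quasi-likelihood test called 1.67% higher and 0.462% lower in WT, where a called gene had to pass 0.05 after Benjamini-Hochberg adjustment and differ by 1.5-fold or more. All 7 monocyte markers were tested, with a summed level of 8135 to 9808 normalized CPM in WT and 8676 to 9995 in *Ifnar1*-/- libraries. Among these markers Ly6c2, which encodes the Ly6C antigen used in the sort, was called higher in WT, at 726, 788 and 640 normalized CPM against 177, 300 and 337 (log2 fold change 1.40, SE 0.23, adjusted p 0.00957). Summed neutrophil markers were highest in library 3 of both groups, at 2031 in WT and 2266 in *Ifnar1*-/- monocytes, against 210 to 832 in the other 4 libraries. Summed microglia markers ran from 260 to 330 and from 297 to 376, and dendritic cell markers from 18.5 to 27.2 and from 12.9 to 23.5. Summed T cell markers ran from 19.3 to 49.6 and from 6.78 to 22.3, and B cell markers from 1.49 to 1.71 and from 0.305 to 1.1, with Pax5 at 0 in every library. The part of other cells in the values below was not tested.

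Of the 12 untested members, 11 had no count in any library. They were Usp13, Usp26, Usp29, Usp43, Usp51, the Y-linked Usp9y and the 5 members of the Usp17l group (Usp17la to Usp17le). The remaining one, Usp44, had at most 4 counts in a library. A count of 0 allows up to 3 counts, or 0.41 to 0.662 CPM depending on the library, and reads of the near-identical Usp17l copies could also have been divided among genes.

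Levels between genes were compared as TPM, which account for length. The highest members were Usp7 at 51.3 ± 8.76 TPM (SD over both groups, n = 6), Usp25 at 50.9 ± 14.7 and Usp9x at 49.4 ± 11.2. For Usp25 this SD takes in the difference between the groups, with means of 63.6 TPM in WT and 38.2 in *Ifnar1*-/- libraries. Levels were not tested between genes. Usp7 stabilises p53 and MDM2, and Usp9x is a large X-linked protease with many substrates. Usp32 followed at 38.2 ± 4.28 TPM and Usp48 at 34.8 ± 8.52. The lowest tested members were Usp27x at 0.525 TPM, Usp11 at 0.755, Usp49 at 0.837, Usp54 at 0.838 and Usp50 at 1.29. The median tested member stood at 11.8 TPM, beside 11.9 for the 10055 tested protein-coding genes, and 14.4% of those genes had a higher mean TPM than Usp25.

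The order within the family, which does not depend on how libraries are scaled, differed between the groups at the top. Usp25 was the highest member in each of the 3 WT libraries, at 59.9, 59.4 and 71.5 TPM. In the *Ifnar1*-/- libraries it had 40.1, 36.0 and 38.4 TPM and ranked 3, 6 and 4. These ranks use the same Usp25 reads as the call given below, so they restate that difference and are not a separate test. Usp9x ranked 3 in every WT library and 1, 1 and 3 in the *Ifnar1*-/- libraries. WT library 1 gave low TPM for many members (34.1 for Usp7 against 54.3 to 56.1 in the other WT libraries), and protein-coding genes took only 34.8% of its TPM against 43.2 to 51.6% in the rest.

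**Figure D1:**
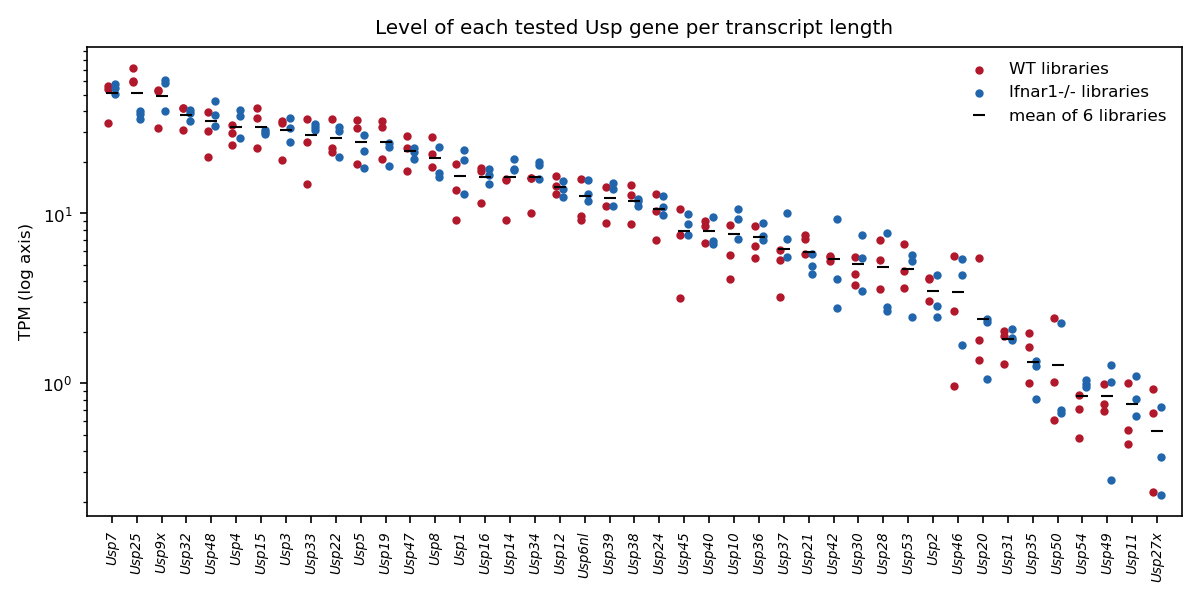
TPM of the 43 tested Usp genes (log axis), ordered by the mean of 6 libraries (black bars), with WT libraries in red and *Ifnar1*-/- libraries in blue. The mean ran from 51.3 TPM for Usp7 to 0.525 for Usp27x, and Usp25 had all 3 WT points above its *Ifnar1*-/- points.

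Among the 43 tested members, Usp25 was called higher in WT monocytes and no member was called lower. This is 1 member, or 2.33% of those tested, beside the 1.67% of all genes called higher, so the share of calls was near the background. The count of 0 lower calls came from edgeR, and DESeq2 and limma-voom also called none, while 5 members were lower at an unadjusted p under 0.05. In all, 14% of the members and 17.8% of all tested genes passed an unadjusted p of 0.05. The median log2 fold change of WT over *Ifnar1*-/- was -0.07 over the members and -0.01 over all genes, with 18 members positive and 25 negative. The median size of the change, without its sign, was 0.14 for the members and 0.24 for all genes. For 19 members, or 44.2%, the 95% interval lay inside a 1.5-fold change in either direction, beside 30.7% of all genes. For the other 24 the interval reached 1.5-fold or beyond, so that a change of this size was not excluded at this depth.

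The 3 WT values lay above all *Ifnar1*-/- values for 3 members (Usp25, Usp21 and Usp35), where 11.1% of all genes did so. They lay below for 7 members (Usp7, Usp9x, Usp10, Usp14, Usp24, Usp31 and Usp34), where 12.2% of all genes did so.

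**Figure D2:**
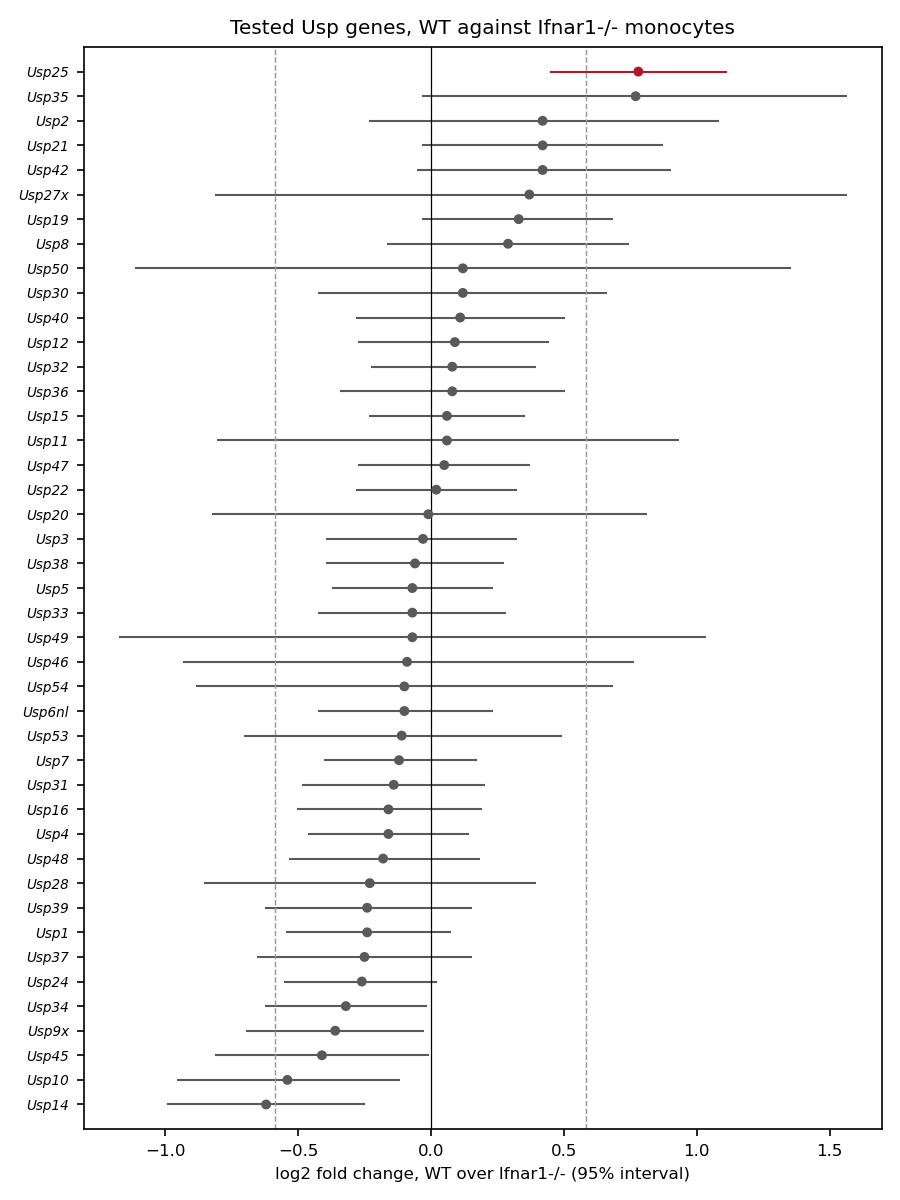
Log2 fold change of WT over *Ifnar1*-/- monocytes for the 43 tested Usp genes, with the 95% interval as a line and a 1.5-fold change as dashed lines. Usp25 (red) was the called member at 0.78, and the values ran down to -0.62 for Usp14.

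Usp25 trims ubiquitin chains on TRAF3 and TRAF6 in pathogen-sensing and cytokine receptor signalling. The gene lies on chromosome 16 (GRCm38, 77013706 to 77116780, plus strand). It had 274, 213 and 236 normalized CPM in the WT libraries and 133, 152 and 137 in the *Ifnar1*-/- libraries. In these bulk samples, fewer cells with the transcript and less RNA per cell cannot be told apart. The lowest WT value was above the highest *Ifnar1*-/- value, and the means were 241 ± 30.6 and 141 ± 9.8 (SD, n = 3 each). Transcripts of Usp25 were 1.71-fold higher in WT monocytes, or by 0.78 on the log2 scale (SE 0.15, 95% interval 0.45 to 1.11, edgeR adjusted p 0.0245). The exact two-sided permutation test on the 3 and 3 values gave p = 0.1, the smallest it can give. The direction held in all 20 alternative fits, with a log2 fold change of 0.68 to 0.87. The adjusted p ran from 0.000123 to 0.373, and the call was kept in 11 of these fits. It was lost without WT library 1 (adjusted p 0.0522) or 3 (0.0742), and without *Ifnar1*-/- library 1 (0.137), 2 (0.055) or 3 (0.133). It was also lost in both limma fits of log2 TPM (0.363 and 0.373) and when replicate numbers entered as a block (0.0521), although these numbers were not shown to pair the libraries. Without library 3 of both groups, where neutrophil markers were highest, the log2 fold change was 0.78 (adjusted p 0.348 with 2 libraries a group). Usp25 lies 14.4 Mb from *Ifnar1*, on the chromosome where a knockout strain can keep DNA of its founder strain, and the part of this in the difference was not tested. Usp16, a histone H2A deubiquitinase that lies closer, 4.0 Mb from *Ifnar1*, had 37.4, 35.5 and 44.8 normalized CPM in WT and 50.4, 39.5 and 41.2 in *Ifnar1*-/- libraries, with overlap (log2 fold change -0.16, SE 0.16, adjusted p 0.644). It overlaps Cct8 on the other strand.

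Usp25 made up 12.2, 10.1 and 10.3% of all member counts in WT and 5.75, 6.84 and 6.16% in *Ifnar1*-/- libraries. The libraries of the groups did not overlap in this share, which had means of 10.9 ± 1.16% and 6.25 ± 0.551%, and the exact permutation test gave p = 0.1. The share uses the same Usp25 counts as the call, so it restates that difference and is not a separate test. The members together took 0.303 ± 0.0182% of protein-coding counts in WT and 0.32 ± 0.0115% in *Ifnar1*-/- monocytes (exact permutation p = 0.3). Without Usp25 the shares were 0.27 ± 0.0181% and 0.3 ± 0.0125% (exact permutation p = 0.2).

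**Figure D3:**
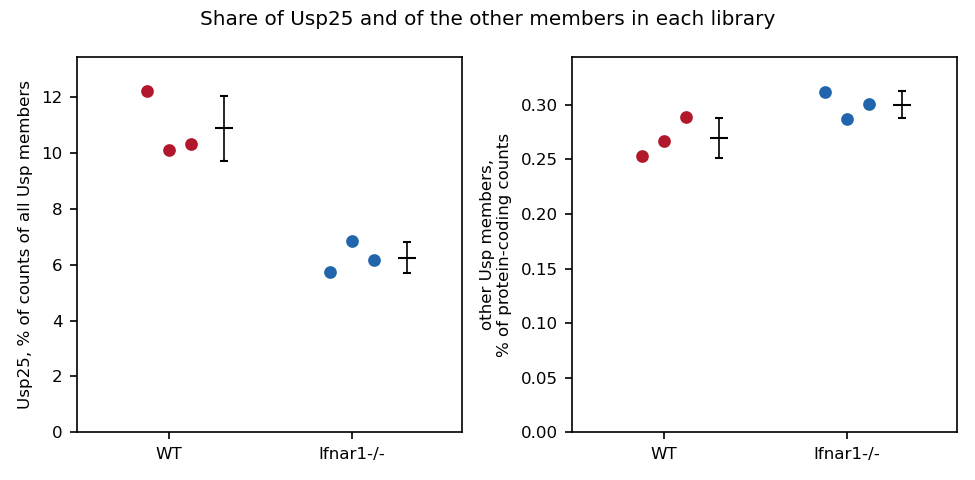
Share of Usp25 in the counts of all Usp members (left) and share of the other members in protein-coding counts (right), as a point per library with mean and SD beside them. The share of Usp25 lay at 10.1 to 12.2% in WT and at 5.75 to 6.84% in *Ifnar1*-/- libraries.

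Usp28, the paralogue whose cysteine box is printed above, is a nuclear protease known for stabilising MYC. It had 8.82, 6.16 and 7.3 normalized CPM in WT and 11.9, 6.61 and 7.72 in *Ifnar1*-/- monocytes, and the groups overlapped (log2 fold change -0.23, SE 0.28, adjusted p 0.711). The log2 ratio of Usp25 to Usp28 counts was 4.93 ± 0.06 in WT and 3.97 ± 0.5 in *Ifnar1*-/- libraries, a difference of 0.96 (exact permutation p = 0.1). This ratio also rests on the Usp25 counts that gave the call. The pair was 1 of 13 pairs of related members in which both were tested, and with 3 libraries a group no pair could pass 0.05. Usp19 and Usp31 (difference 0.47) and Usp16 and Usp45 (0.25) also reached 0.1. Usp4 and Usp15, close paralogues at 32.4 and 32.2 TPM, had log2 fold changes of -0.16 and 0.06.

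The members next in order of p had lower means in WT, but none passed the adjusted threshold. Usp14 is the proteasome-bound protease that trims chains from substrates before they are degraded. It had 21.5, 25.5 and 23.1 normalized CPM in WT and 40.5, 29.8 and 37.1 in *Ifnar1*-/- libraries, without overlap. The log2 fold change of Usp14 was -0.62, with an SE of 0.17 and an adjusted p of 0.094. With no filter on low counts Usp14 was called (adjusted p 0.0286). With an offset for GC content and length its value was -0.46 (adjusted p 0.164). Usp14 overlaps Thoc1 on the other strand, and whether strand was used in counting is not stated.

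Usp10, which acts on p53 and binds the stress granule protein G3BP1, had 13.1, 14.2 and 10.3 normalized CPM in WT and 17.3, 19.0 and 18.4 in *Ifnar1*-/- libraries. These groups did not overlap either (log2 fold change -0.54, SE 0.19, adjusted p 0.172). Usp9x had 186, 237 and 225 normalized CPM in WT and 291, 274 and 264 in *Ifnar1*-/- monocytes, with every WT value below (log2 fold change -0.36, SE 0.15, adjusted p 0.24).

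Usp34 and Usp24 are a pair of very large related proteases, and Usp34 is known for acting on axin in WNT signalling. Usp34 had 138, 145 and 157 normalized CPM in WT and 196, 185 and 169 in *Ifnar1*-/- libraries (log2 fold change -0.32, SE 0.14, adjusted p 0.257). Usp24 had 93.2, 89.5 and 100 in WT and 113, 115 and 112 in *Ifnar1*-/- libraries (log2 fold change -0.26, SE 0.13, adjusted p 0.313). In both genes all WT values were below all *Ifnar1*-/- values. Usp34 overlaps Ahsa2 on the other strand.

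Usp45 takes part in DNA crosslink repair. It had 22.1, 26.4 and 31.6 normalized CPM in WT and 39.7, 30.0 and 36.4 in *Ifnar1*-/- libraries, with overlap (log2 fold change -0.41, SE 0.18, adjusted p 0.263), and the gene overlaps Tstd3 on the other strand. Usp1, which removes ubiquitin from FANCD2 and PCNA, had 43.3, 44.6 and 50.3 in WT and 50.1, 53 and 59.8 in *Ifnar1*-/- libraries (log2 fold change -0.24, SE 0.14, adjusted p 0.404). The lowest *Ifnar1*-/- value of Usp1 was just under the highest WT value.

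Of the 12 members with the smallest p, 4 had positive values besides Usp25, none called. Usp35 was low, at 4.98, 3.4 and 3.95 normalized CPM in WT and 1.83, 2.2 and 3.31 in *Ifnar1*-/- libraries (log2 fold change 0.77, SE 0.36, adjusted p 0.294). Its estimate was as large as that of Usp25, but it rested on 12 to 35 counts per library, its SE was larger, and it ran from 0.23 to 1.08 over the alternatives, with the low end in a limma fit of TPM. Usp21, a protease of histone H2A and of RIG-I, had 11.4, 10.6 and 11.5 normalized CPM in WT and 9.47, 7.63 and 7.91 in *Ifnar1*-/- libraries (log2 fold change 0.42, SE 0.2, adjusted p 0.308). The groups did not overlap in Usp35 and Usp21, and did in Usp19 and Usp42.

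Usp19, which has a form anchored in the endoplasmic reticulum, had 99.5, 83.1 and 97.5 normalized CPM in WT and 71.9, 63.2 and 88.3 in *Ifnar1*-/- libraries (log2 fold change 0.33, SE 0.16, adjusted p 0.312). This value of Usp19 was 0.04 with an offset for GC content and length. Usp42 had 25, 15.1 and 19.7 in WT and 13.4, 16.6 and 14.9 in *Ifnar1*-/- libraries (log2 fold change 0.42, SE 0.21, adjusted p 0.327). The value of Usp42 was 0.23 without WT library 1, 0.27 with the GC and length offset and 0.14 in the limma fit of log2(TPM + 1).

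**Figure D4:**
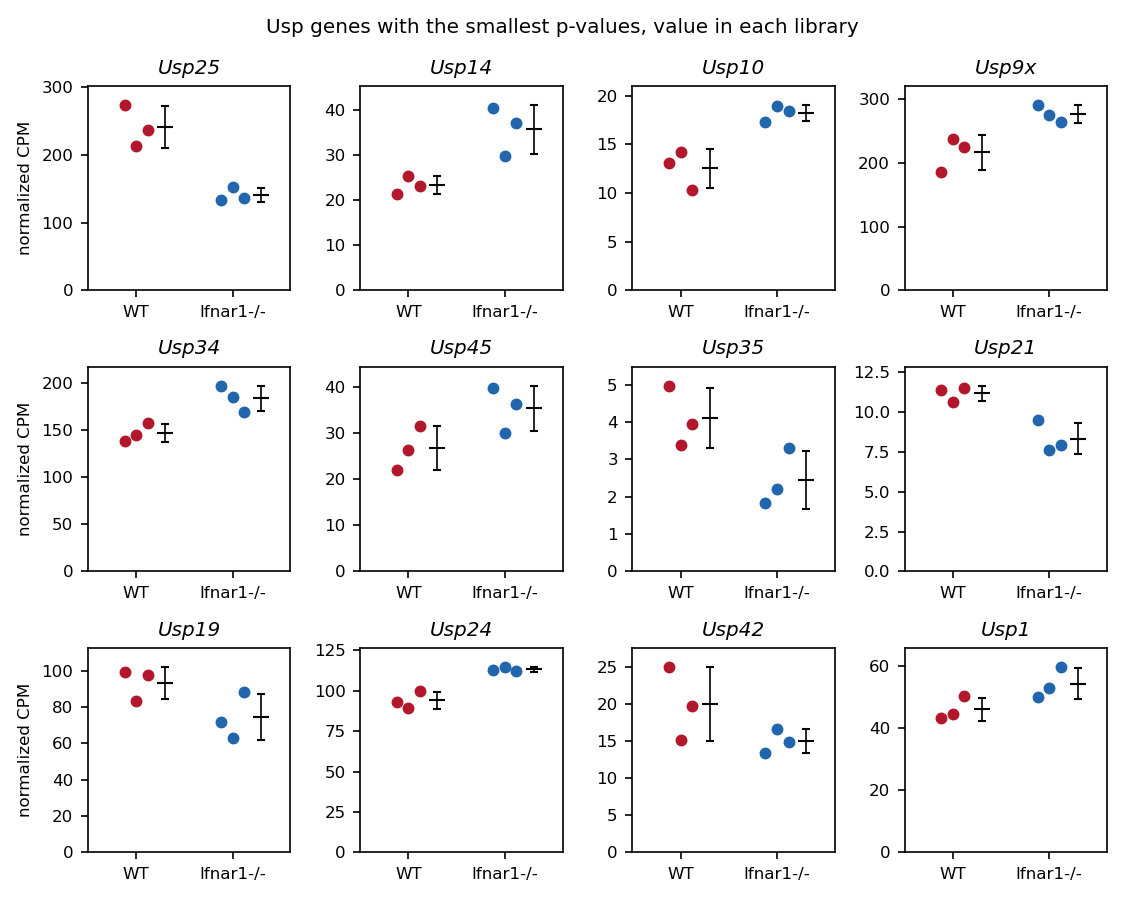
Normalized CPM of the 12 Usp genes with the smallest p in each WT (red) and *Ifnar1*-/- (blue) library, with the mean and SD of 3 libraries in black and axes starting at 0. Usp25 had 213 to 274 in WT and 133 to 152 in *Ifnar1*-/- monocytes, and 5 of the others had all WT points below the *Ifnar1*-/- points.

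Several abundant members had intervals inside 1.5-fold. Usp7 had 143, 135 and 129 normalized CPM in WT and 148, 150 and 144 in *Ifnar1*-/- libraries, without overlap, but the values were close (log2 fold change -0.12, interval -0.40 to 0.17, adjusted p 0.677). Usp15 had 76.7, 76.9 and 79.6 in WT and 78.0, 68.6 and 77.2 in *Ifnar1*-/- libraries, which overlapped (interval -0.23 to 0.35). Usp47, which acts on the repair polymerase beta, had 117, 108 and 128 in WT and 128, 104 and 108 in *Ifnar1*-/- libraries, again with overlap (interval -0.27 to 0.37). Usp32, a membrane-bound protease of the Golgi, had an interval of -0.22 to 0.39, and Usp4 of -0.46 to 0.14.

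At the other end, members with few counts had wide intervals. Usp50 had 8 to 26 counts in a library and an interval of -1.11 to 1.35 on the log2 scale. Usp27x had 5 to 14 counts and an interval of -0.81 to 1.56, and Usp49 had 6 to 39 counts and an interval of -1.17 to 1.03. Usp11, a paralogue of Usp4 and Usp15 with a role in DNA repair, had 8 to 17 counts and an interval of -0.80 to 0.93. Usp20, which acts on cell surface receptors, had 4.41, 2.76 and 7.7 normalized CPM in WT and 4.58, 5.93 and 4.41 in *Ifnar1*-/- libraries, with overlap (interval -0.82 to 0.81). For these genes a change of 1.5-fold in either direction was inside the interval. Usp2, known for a circadian rhythm in many tissues, had 9.25, 8.08 and 8.09 in WT and 3.82, 8.3 and 6.99 in *Ifnar1*-/- libraries (log2 fold change 0.42, SE 0.29, adjusted p 0.49), and the highest *Ifnar1*-/- value lay among the WT values.

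The members without a cysteine box were expressed at middle levels and were not called. Usp39 had 25.5, 27.6 and 21.1 normalized CPM in WT and 33.3, 29.3 and 24.8 in *Ifnar1*-/- libraries (log2 fold change -0.24, SE 0.17, adjusted p 0.512). Usp6nl had 38.4, 41.9 and 33.6 in WT and 43.2, 41.7 and 36.6 in *Ifnar1*-/- libraries (log2 fold change -0.10, SE 0.15, adjusted p 0.78). The groups overlapped in both.

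Over the 43 members, Spearman's rho between the log2 fold change and the GC content of the transcript was 0.507, and over all tested genes it was 0.369. These are correlations across genes of the same libraries, given as a description. Tested members had a median length of 3092 bases, against 2133 over all tested genes, and a median GC content of 48.7% against 49.9%. With an offset for GC content and length, Usp25 had 0.69 (edgeR adjusted p 0.0212), Usp35 0.52 and Usp21 0.25. The size of the change became larger for Usp10 (-0.62), Usp24 (-0.36) and Usp1 (-0.34). It became smaller for Usp9x (-0.32), Usp34 (-0.28) and Usp45 (-0.37).

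The members were also grouped by what the proteases are known to act on. The list of members that act in innate immune signalling had 12 tested, of which Usp25 was called higher and none lower, with a median log2 fold change of -0.02. This is the Usp25 call given above and not a further result about the list. Over all tested genes, 1.67% were called higher and 0.462% lower. It includes Usp3 (-0.03, SE 0.16, adjusted p 0.945), which acts on RIG-I, Usp15 (0.06, SE 0.13, adjusted p 0.856), which acts on TRIM25, and Usp27x (0.37, SE 0.53, adjusted p 0.761), a protease of cGAS.

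None of the 8 tested members that act on histones and chromatin was called (median -0.05). Among them Usp22, the deubiquitinase of the SAGA complex, had 63.0, 58.9 and 52.1 normalized CPM in WT and 59.4, 56.6 and 55.9 in *Ifnar1*-/- monocytes. The log2 fold change of Usp22 was 0.02 with an interval of -0.28 to 0.32, inside 1.5-fold.

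None of the 8 tested members of the DNA repair, p53 and cell cycle list was called (median -0.23). Usp10 and Usp45 of this list were lower at an unadjusted p under 0.05, which 17.8% of all tested genes passed in either direction. Usp5, which takes apart free ubiquitin chains, had a log2 fold change of -0.07 (interval -0.37 to 0.23) and shares the recycling and proteasome list with Usp14. The 7 tested members of the endosome, endoplasmic reticulum, mitochondrion and membrane traffic list had a median of 0.08 and no call. Usp8, which sorts receptors at endosomes, had 125, 72.1 and 107 normalized CPM in WT and 74.1, 96.8 and 78.0 in *Ifnar1*-/- libraries, with overlap (log2 fold change 0.29, SE 0.2, adjusted p 0.491). It overlaps Usp50 on the other strand. The mitochondrial Usp30 had 0.12 (SE 0.24, adjusted p 0.842). The 3 proteases bound by the cofactor UAF1 had a median of -0.09, and the 12 tested members on no list had a median of -0.01, with no call in either. Lists share members (Usp7 is on 3 of them), and in each list DESeq2 and limma-voom gave the calls that edgeR gave.

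As a comparison, genes of the other deubiquitinase families were counted, and they are called other deubiquitinases here. They were listed by family, and whether each product removes ubiquitin was not checked. Of 42 listed genes of the other classes and of the USP fold under other names, 36 were tested, and Zup1 was called higher and none lower (median log2 fold change -0.10, 13 positive). The 1 higher call among 36 stands beside 1.67% of all tested genes called higher and 0.462% called lower. Beside the 0 lower calls of edgeR, 5 were lower at an unadjusted p under 0.05, and DESeq2 and limma-voom called none. Over all tested genes, 17.8% passed this unadjusted p in either direction. Zup1 cleaves long K63-linked chains. It had 91.2, 85.7 and 102 normalized CPM in WT and 57.7, 59.3 and 44.5 in *Ifnar1*-/- libraries, without overlap (log2 fold change 0.78, SE 0.15, edgeR adjusted p 0.0277). The call was lost in both limma fits of TPM (adjusted p 0.704 and 0.706), without WT library 3 (0.105), without *Ifnar1*-/- library 1 (0.106) or 3 (0.137), without library 3 of both groups (0.426) and with a block for replicate number (0.0592). Over the alternatives its estimates lay at 0.53 to 0.91. The next in order of p was Psmd14, the deubiquitinase of the proteasome lid. It had 40.3, 57.0 and 42.1 in WT and 77.4, 62.7 and 71.0 in *Ifnar1*-/- libraries (log2 fold change -0.60, SE 0.17, adjusted p 0.106). Psmd14 stood at -0.39 (adjusted p 0.227) with the GC and length offset. After it came Otud5 (0.55, adjusted p 0.135), Cops5 of the COP9 signalosome (-0.42, adjusted p 0.16), Otud6b (-0.42, adjusted p 0.181) and Eif3h (-0.39, adjusted p 0.205).

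Among 15 tested genes for partner proteins and ubiquitin itself, edgeR and limma-voom called none, and DESeq2 called 2 higher and 1 lower. At an unadjusted p under 0.05, 2 were higher and 3 lower, where 17.8% of all tested genes passed in either direction. Rps27a encodes ubiquitin fused to a ribosomal protein. It had 274, 454 and 362 normalized CPM in WT and 691, 575 and 594 in *Ifnar1*-/- libraries, without overlap (log2 fold change -0.77, SE 0.2, edgeR adjusted p 0.0823). DESeq2 called Rps27a lower (adjusted p 0.00541). With the GC and length offset its edgeR value was -0.46 (adjusted p 0.185). The polyubiquitin gene Ubb had a log2 fold change of 0.35 (adjusted p 0.284). Hgs, an endosomal partner of Usp8, had 46.4, 18.1 and 21.1 normalized CPM in WT and 13.9, 15.4 and 10.5 in *Ifnar1*-/- libraries (log2 fold change 1.12, SE 0.33, edgeR adjusted p 0.128). DESeq2 called Hgs higher (adjusted p 0.0396). Without WT library 1, which was the highest, the edgeR estimate was 0.57 (adjusted p 0.341). Wdr48, which encodes UAF1, had -0.31 (SE 0.15, adjusted p 0.322).

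**Figure D5:**
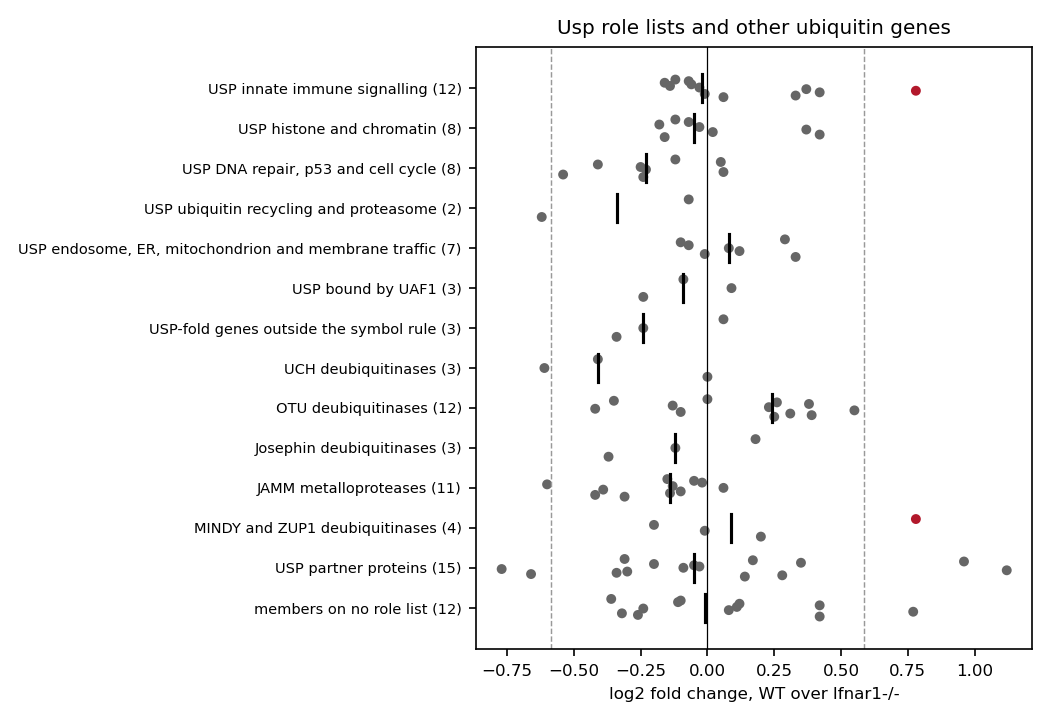
Log2 fold change of WT over *Ifnar1*-/- monocytes for the tested genes (points) of each Usp role list, other deubiquitinase class and the partner list, with list medians as black bars, called genes in red and 1.5-fold as dashed lines. The numbers in brackets are tested genes, and the called genes Usp25 and Zup1 both stand at 0.78.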

How the data were processed

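RNA of sorted CNS monocytes was sequenced as 75-base read pairs. The authors mapped reads to GRCm38 with STAR 2.6.0c and quantified genes with RSEM 1.2.31 (submitters' processing notes). They deposited, per library, expected counts, which are estimated counts that divide multi-mapped reads, and TPM, scaled by length and to the same total in each library over all genes, ribosomal RNA included. The labels and the methods name different library kits. Gene symbols came from GENCODE M21, which matched 54165 of 54232 identifiers.

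Expected counts were rounded, filtered (edgeR filterByExpr, minimum 10), TMM-normalized and tested with edgeR 4.0.16 (quasi-likelihood), with adjustment over all 11254 genes. SE, intervals (95%) and normalized CPM came from this fit. Single values were compared by exact two-sided permutation tests, which cannot fall below p = 0.1 with 3 libraries each. Alternatives used DESeq2 1.42.0, limma 3.58.1 and other filters, offsets and libraries. The script was tested on simulated data. Members and gene lists were chosen with earlier results of these data known. Genes were named in full where called or among the 12 smallest p, by level as the 5 highest and 5 lowest, by role, and for other deubiquitinases where called or among the next 5. Genes of the partner list and paralogues were named after their values were seen where they stood out. Cysteine box codons were read from the longest coding transcript that holds the box. Some genes of the marker and partner lists are counted but not reported singly here.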

Additional observations from a re-analysis of the deposited data

How the results depend on the processing

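With 3 libraries per group and an SE of 0.13 to 0.55 for the members, small changes could not be resolved, and the lowest members rested on few counts. The count of all called genes was 240, and was 419 with DESeq2, 872 with no filter on low counts, 110 and 109 with limma on log2(TPM + 1) and log2(TPM + 0.1), and 119 to 245 on leaving out each library. With both TPM fits 0 Usp members and 0 other deubiquitinases were higher, and the log2 fold change of Usp25 was 0.72 (adjusted p 0.363) and 0.73 (0.373). With no filter 1 member (Usp14) and 1 other deubiquitinase (Psmd14) were lower. On leaving out each library, Usp members higher were 0 to 1, other deubiquitinases higher 0 to 1 and lower 0 to 1 (Psmd14, without WT library 2), Usp25 was 0.68 to 0.87, and the member median was -0.08 to 0.02. Leaving out library 3 of both groups, an alternative chosen after seeing the data, gave 95 called genes, 0 Usp members and 0 other deubiquitinases higher, and 0.78 for Usp25 (adjusted p 0.348). Zup1 lost its call without WT library 3 and without *Ifnar1*-/- library 1 or 3. The member median was -0.14 with a length offset (-0.04 for all genes). The cause of these shifts was not tested.

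Libraries with the same replicate number were not shown to be pairs. Their deviations from the group means correlated at 0.0872, 0.0265 and 0.289. For libraries with different numbers the correlations ran from -0.204 to 0.101. Only 0.289, of library 3, lay outside that range, so these values do not settle the pairing. With the replicate block, Usp25 was 0.77 (adjusted p 0.0521), and 0 members and 0 other deubiquitinases were called higher (Zup1 adjusted p 0.0592). With the replicate block and a GC and length offset, or the block in DESeq2, both genes were called. Direction across the alternatives was followed for the members with the smallest p, the member median, Zup1, Psmd14, Otud5, Hgs and Rps27a. None of these genes reversed its direction. The member median did, at 0.02 without WT library 2 and 0.01 without *Ifnar1*-/- library 3. For the other members the direction was not followed through all alternatives.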
